A study of Mus musculus with 6 samples.

Results

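The 41 genes described here encode hydrolases, membrane proteins, proton pump subunits and one transcription factor of the lysosome. They were taken as the genes whose annotated symbol equals a name on a fixed list, each read from its brightest probe set with 1 symbol, and all 41 were measured among 18193 genes. The study used 6 arrays of 1 colour from mice of the C57BL/6 strain. Plasma cells (3 arrays), which secrete antibody, were sorted from bone marrow as B220- and CD138+ at day 7 after a boost with keyhole limpet hemocyanin, a protein antigen. B cells (3 arrays) were naive mature follicular cells, sorted from spleen as B220+ and CD23+, with no boost stated for them. Tissue, boost, bead enrichment and the number of cells per array all differed together with the cell type and cannot be told apart from it. Whether the arrays of a group stand for different animals is not stated in the labels, and the spread behind each p-value may be technical in part. B cell array 1 differed from arrays 2 and 3 in sex-linked genes, given below, so these did not share one source.

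Lysosomes are acidic compartments in which proteins, glycans, lipids and nucleic acids are broken down. A proton pump, the V-ATPase, acidifies them, most of their enzymes arrive from the Golgi carrying mannose 6-phosphate, and the transcription factor TFEB with its relatives TFE3 and MITF activates many of their genes through short promoter elements built around the letters CACGTG. In B cells the same compartments cut antigen and the invariant chain for presentation on MHC class II, a task that plasma cells largely give up as they turn to secretion.

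The sort markers followed the gates in direction. Ptprc, which encodes B220, was at 4170 to 4288 on the plasma cell arrays and at 9341 to 9599 on the B cell arrays. Whether its probe set reads the B220 form was not checked. Sdc1, which encodes CD138, was at 12664 to 13218 on the plasma cell arrays and at 969 to 1183 on the B cell arrays, and Fcer2a, which encodes CD23, was at 44.0 to 52.0 on the plasma cell arrays and at 5061 to 6734 on the B cell arrays. B cell array 1 stood apart from the other two: its correlation with them over probe sets was 0.933 and 0.926, where theirs was 0.992. Xist, transcribed from an inactive X chromosome, was at 8070 to 8702 on the plasma cell arrays and at 8408 on B cell array 1, but at 30.8 and 18.1 on B cell arrays 2 and 3. Kdm5d, the other sex-linked gene read, was at 1507 and 1576 on B cell arrays 2 and 3 and at 3.00 to 8.84 on the other arrays. A fit without array 1 therefore cannot tell sex from cell type, and the fit with all arrays is also unbalanced for sex. This bears most directly on the 4 X-linked members Gla, Lamp2, Ids and Atp6ap1. Effects of sex on any member were not tested. Lysosomal genes are active in phagocytes, so lists of their markers were summed. The 16 measured monocyte and macrophage markers summed to 3545 to 5251 on the plasma cell arrays, against 12951 on B cell array 1 and 7776 and 8451 on arrays 2 and 3. Of these 16 genes 1 rose and 5 fell with all arrays, and 6 rose and 5 fell without B cell array 1. Of all genes 17.6% rose and 12.3% fell in the first fit, and 22.7% and 21.1% in the second. These shares apply to the marker counts below as well. The macrophage receptor gene Mrc1 rose, at 1298, 1206 and 1065 in plasma cells, against 142, 35.4 and 50.6 in B cells (log2 fold change 3.88, adjusted p = 0.00122), while most of the B cell sum came from the lysozyme genes Lyz1 and Lyz2, which fell. On all 3 plasma cell arrays Cd14 and Cx3cr1 lay within the background set by bacterial control probes, as did C1qa on all 3 B cell arrays. The 11 measured granulocyte markers summed to 8526, 20059 and 14836 on plasma cell arrays 1 to 3, against 13007, 3009 and 1992 on B cell arrays 1 to 3, mostly from S100a8 and S100a9. Of them 1 rose and 1 fell with all arrays, and 6 rose and 1 fell without B cell array 1. Mpo rose (log2 fold change 1.49, adjusted p = 0.0139) and Csf3r fell (-2.19, adjusted p = 0.00326). S100a8, S100a9, Camp, Ngp and Ltf rose as well without B cell array 1. Camp was at 504, 1364 and 645 in plasma cells, against 596, 48.4 and 45.9 in B cells. Cxcr2 lay within background on all plasma cell arrays. The 7 measured T and NK cell markers summed to 840 to 1476 on the plasma cell arrays, against 4365 on B cell array 1 and 163 and 225 on arrays 2 and 3. Of these 7 genes 1 rose and 0 fell with all arrays, and 3 rose and 0 fell without B cell array 1. Cd4 rose, at 311, 393 and 459 in plasma cells and within background on all B cell arrays (at least 13.4-fold higher). The 8 dendritic cell markers summed to 5612 to 6720 on the plasma cell arrays, against 1528 to 1786 on the B cell arrays; 2 of them rose, Bst2 (log2 fold change 2.35) and Flt3 (2.61), and 2 fell. The 9 basophil, mast cell and eosinophil markers summed to 12716 to 14042 on the plasma cell arrays, against 284 to 572 on the B cell arrays, with Prg2 at 12227 to 13531 in plasma cells. Prg2 and Prg3, genes of eosinophil granule proteins, rose, Prg3 being at 317, 364 and 337 in plasma cells and within background on all B cell arrays (at least 11.8-fold higher), while the other 7 did not pass the threshold. The part of these cells in the values below was not tested.

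The lysosome genes moved in both directions. Of the 41 members 15 rose and 7 fell in plasma cells in limma's fit over all genes (Benjamini-Hochberg adjusted p at or under 0.05), which is 36.6% and 17.1% of them, where 17.6% of all genes rose and 12.3% fell, and 29.9% changed either way. After median centring of each array, 11 members rose and 7 fell, where 2028 of all genes rose and 2780 fell, against 3193 and 2246 without centring. By at least 2-fold, 10 of the 41 members rose and 3 fell, against 1985 and 1233 of all 18193 genes. The share of members that fell this far was close to that of all genes. The rises were led by the aspartic protease gene Ctse and by Gla and Glb1, which encode galactosidases, and the falls by the aminopeptidase gene Ctsh, by Tfeb and by the thiol reductase gene Ifi30. The median log2 fold change of the members was 0.25, with a range of -1.88 to 3.19, and that of all genes was -0.06. The members are bright genes: 40 of 41 lay above background on all 6 arrays, and among the 10719 genes of the array that did so 22.8% rose and 17.6% fell. The 3 arrays of plasma cells and the 3 of B cells did not overlap for 30 members, 73.2%, against 47.8% of all genes and 61.1% of those 10719. In a sorted bulk sample, fewer cells that use a gene and less RNA per cell cannot be told apart.

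The lower side of this count rested partly on B cell array 1. Without it 17 members rose and 13 fell, 41.5% and 31.7%, where 22.7% of all genes rose and 21.1% fell, and 28.9% and 30.1% of the genes above background on all 6 arrays. On that array 29 of the 41 members lay below both other B cell arrays and 7 above both, with a median log2 difference from them of -0.21. Among the 10719 genes above background on all 6 arrays, 6600 lay below both others and the median difference was -0.19, so the members' shift is close to that of other bright genes. In the fit with all 6 arrays 11 of the 22 calls held under each of 16 alternative settings: Ctsb, Ctsd, Ctse, Gla, Glb1, Gusb, Asah1 and Npc2 among those that rose, and Ctsh, Ifi30 and Tfeb among those that fell. Averaging all probe sets of a gene moved 3 of these by over 1.5 times, Gla to 0.63, Npc2 to 0.57 and Gusb to 2.31 on the log2 scale.

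**Figure D1:**
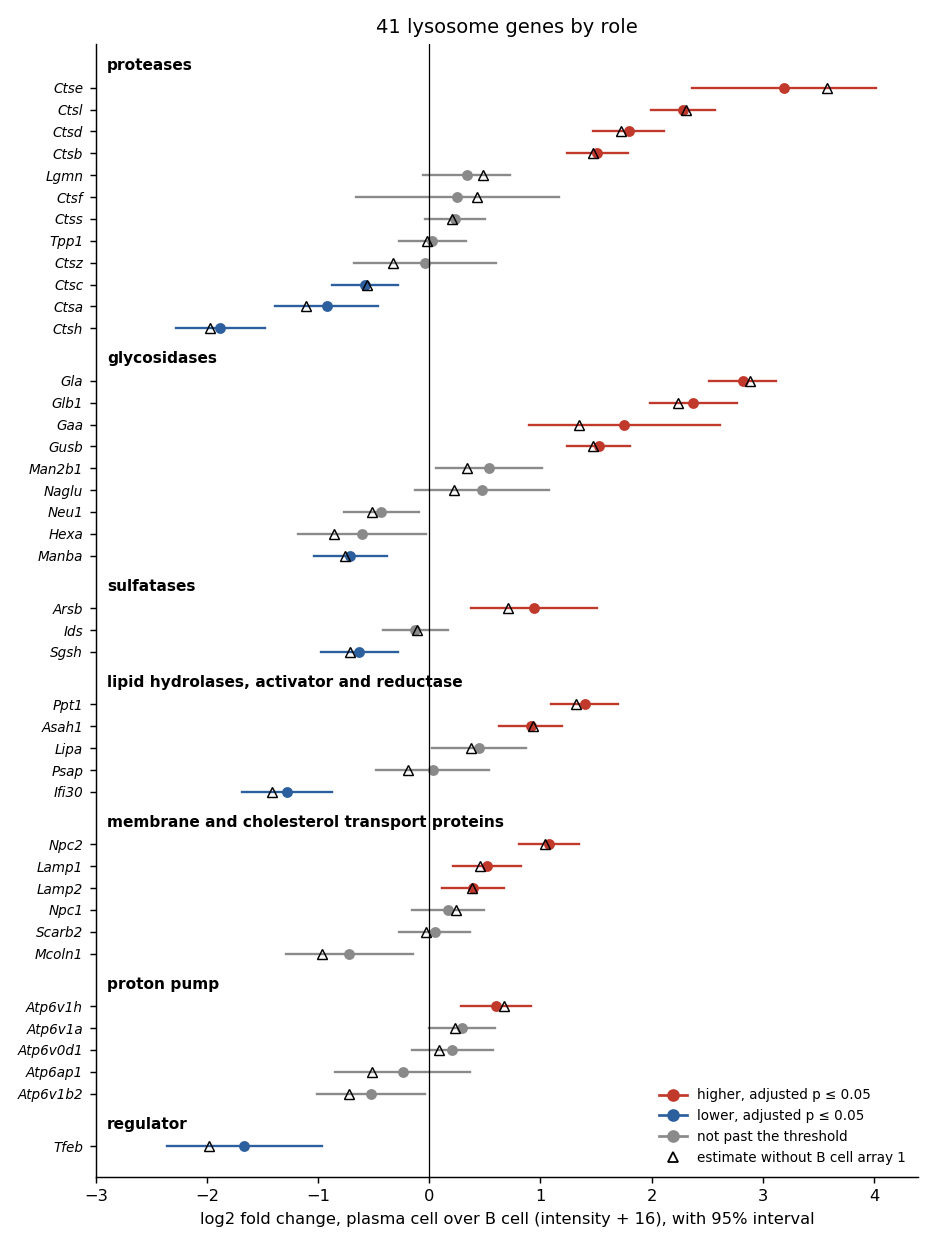
Log2 fold change of plasma cells over B cells for the 41 genes, grouped by role, on the scale of log2(intensity + 16). Dots and bars give the estimate and its 95% interval from 3 arrays a group, coloured by the limma call, and open triangles the estimate without B cell array 1. Ctse stands at 3.19 at the upper end and Ctsh at -1.88 at the lower, and each enzyme group holds genes on both sides of 0.

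Promoters of members on both sides of 0 are shown because many carry the E-box CACGTG, the core of the element through which TFEB and its relatives bind. RefSeq gave windows from 250 bases before to 50 bases after a transcription start (assembly GRCm38.p6) for 34 of the 41 genes, 39 windows in all. CACGTG, which reads the same on both strands, was in 15 of the 39 windows (38.5%), against 7.15% of all 32851 windows. The longer GTCACGTG, searched on both strands and containing the first motif, was in 11 of 39 (28.2%) against 2.25% of all. The full palindrome, which adds AC to the end of GTCACGTG, was in 0 of 39 against 0.326% of all. Genes with a CACGTG window were 6 of 11 that rose, 3 of 6 that fell and 6 of 17 that did not pass the threshold, so the motif was found in all 3 classes. A match is a run of letters and no evidence of binding. The windows below, 5′ to 3′ on the strand of the gene with CACGTG in capitals, belong to Gla (chrX:134600956-134601255, minus strand, motif starting 227 and 194 bases before the start), Glb1 (chr9:114400828-114401127, plus, 48 before), Ctsd (chr7:142387778-142388077, minus, 245 and 98 before) and Lamp1 (chr8:13158911-13159210, plus, 61, 45, 28 and 15 before), which rose. Ctsa (chr2:164833523-164833822, plus, 12 before and at position 6 after) and Ifi30 (chr8:70766614-70766913, minus, 196 before) fell.
Gla: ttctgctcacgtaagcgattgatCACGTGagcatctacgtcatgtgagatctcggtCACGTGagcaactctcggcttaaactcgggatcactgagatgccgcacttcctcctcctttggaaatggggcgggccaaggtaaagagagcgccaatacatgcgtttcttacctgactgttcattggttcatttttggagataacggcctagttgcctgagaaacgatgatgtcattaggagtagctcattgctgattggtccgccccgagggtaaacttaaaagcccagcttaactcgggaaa
Glb1: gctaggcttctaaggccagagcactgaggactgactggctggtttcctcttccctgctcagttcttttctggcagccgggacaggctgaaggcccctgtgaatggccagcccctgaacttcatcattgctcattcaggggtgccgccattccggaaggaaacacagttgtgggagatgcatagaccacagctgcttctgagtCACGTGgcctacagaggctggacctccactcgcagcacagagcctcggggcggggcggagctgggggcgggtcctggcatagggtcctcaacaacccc
Ctsd: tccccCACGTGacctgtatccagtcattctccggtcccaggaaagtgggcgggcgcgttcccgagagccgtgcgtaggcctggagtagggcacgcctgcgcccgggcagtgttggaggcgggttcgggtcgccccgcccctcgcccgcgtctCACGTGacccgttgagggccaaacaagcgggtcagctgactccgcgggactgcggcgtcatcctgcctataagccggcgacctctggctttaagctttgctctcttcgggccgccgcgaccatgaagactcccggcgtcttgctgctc
Lamp1: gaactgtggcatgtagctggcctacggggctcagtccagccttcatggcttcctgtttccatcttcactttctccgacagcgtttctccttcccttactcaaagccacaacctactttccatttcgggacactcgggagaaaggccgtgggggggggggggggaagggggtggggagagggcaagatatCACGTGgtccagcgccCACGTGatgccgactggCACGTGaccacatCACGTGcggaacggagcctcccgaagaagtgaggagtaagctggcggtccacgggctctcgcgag
Ctsa: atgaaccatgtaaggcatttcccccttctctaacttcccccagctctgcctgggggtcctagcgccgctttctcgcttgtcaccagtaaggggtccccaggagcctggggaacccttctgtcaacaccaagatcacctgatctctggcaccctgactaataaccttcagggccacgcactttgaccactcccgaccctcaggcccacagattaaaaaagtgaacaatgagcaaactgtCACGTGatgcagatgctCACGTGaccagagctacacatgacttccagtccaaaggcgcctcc
Ifi30: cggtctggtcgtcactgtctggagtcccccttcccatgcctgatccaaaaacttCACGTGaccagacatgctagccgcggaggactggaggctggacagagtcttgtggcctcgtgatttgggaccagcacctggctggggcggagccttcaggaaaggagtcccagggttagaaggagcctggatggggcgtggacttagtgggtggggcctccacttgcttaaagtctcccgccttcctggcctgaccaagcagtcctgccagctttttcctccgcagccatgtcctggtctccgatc

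Among the 12 proteases 4 rose and 3 fell, 33.3% and 25%, where 17.6% of all genes rose and 12.3% fell. Ctse, an aspartic endopeptidase of endosomes in immune cells, had intensities of 3123, 3268 and 2942 on the plasma cell arrays, against 571, 235 and 255 on the B cell arrays (log2 fold change 3.19 ± 0.34 SE, adjusted p = 0.00114). B cell array 1 was the highest of its group, and without it the difference was 3.58. Ctsl, which encodes the cysteine endopeptidase cathepsin L, had 645, 681 and 665 on plasma cell arrays, against 129, 130 and 112 on B cell arrays (2.28 ± 0.12, adjusted p = 9.87e-05). Ctsd, the main aspartic protease of lysosomes, whose promoter with its 2 E-boxes is printed above, was at 2272, 2425 and 2270 in plasma cells and at 594, 738 and 648 in B cells (1.80 ± 0.13). Ctsb, which encodes a cysteine protease that also trims dipeptides from protein ends, was at 11039, 10999 and 10461 in plasma cells and at 3593, 3802 and 3992 in B cells (1.51 ± 0.11). The groups did not overlap for any of the 4.

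Ctsh, Ctsa and Ctsc fell. Ctsh, an aminopeptidase, was at 1799, 2156 and 1616 in plasma cells, against 6006, 7240 and 7319 in B cells (log2 fold change -1.88 ± 0.16, adjusted p = 0.000539). Ctsa, a serine carboxypeptidase that also holds β-galactosidase and the sialidase NEU1 in a protective complex, was at 1915, 1905 and 2062 in plasma cells, against 2895, 4491 and 3999 in B cells (-0.92 ± 0.19). Ctsc, a dipeptidyl peptidase known for activating granule proteases, was at 4014, 4629 and 4020 in plasma cells, against 6469, 6074 and 6387 in B cells (-0.58 ± 0.12). The groups did not overlap for any of the 3. Ctsa was no longer called without plasma cell array 1 (adjusted p = 0.0597), plasma cell array 2 (0.0588) or B cell array 3 (0.0531), and Ctsc was not without plasma cell array 1 (0.0729), plasma cell array 3 (0.058) or B cell array 3 (0.054).

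The other 5 proteases did not pass the threshold. Ctss, which cuts the invariant chain of MHC class II in B cells, averaged 14563 ± 547 in plasma cells and 12408 ± 452 in B cells (SD, n = 3 each), with a 95% interval of the log2 fold change from -0.04 to 0.50. The plasma cell values lie within 2-fold of the highest on their arrays, 26246 to 26749, where a difference can be compressed. Lgmn, an asparaginyl endopeptidase, had a log2 fold change of 0.34 (interval -0.06 to 0.73) and was called higher without B cell array 1 (0.48, adjusted p = 0.00803). Ctsz, a carboxypeptidase, had -0.04 (-0.67 to 0.60) and was called lower without that array (-0.32, adjusted p = 0.0391), on which it stood at 4937 against 8716 and 9264 on the others. Tpp1, a tripeptidyl peptidase, was close in both groups, at 2042 to 2364 in plasma cells and 2021 to 2290 in B cells, and its interval of -0.28 to 0.33 excludes a 2-fold change. Ctsf, another cysteine protease, was dim, at 32.0 to 83.2 in plasma cells and 19.9 to 52.2 in B cells, and above background on 2 arrays of each group.

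**Figure D2:**
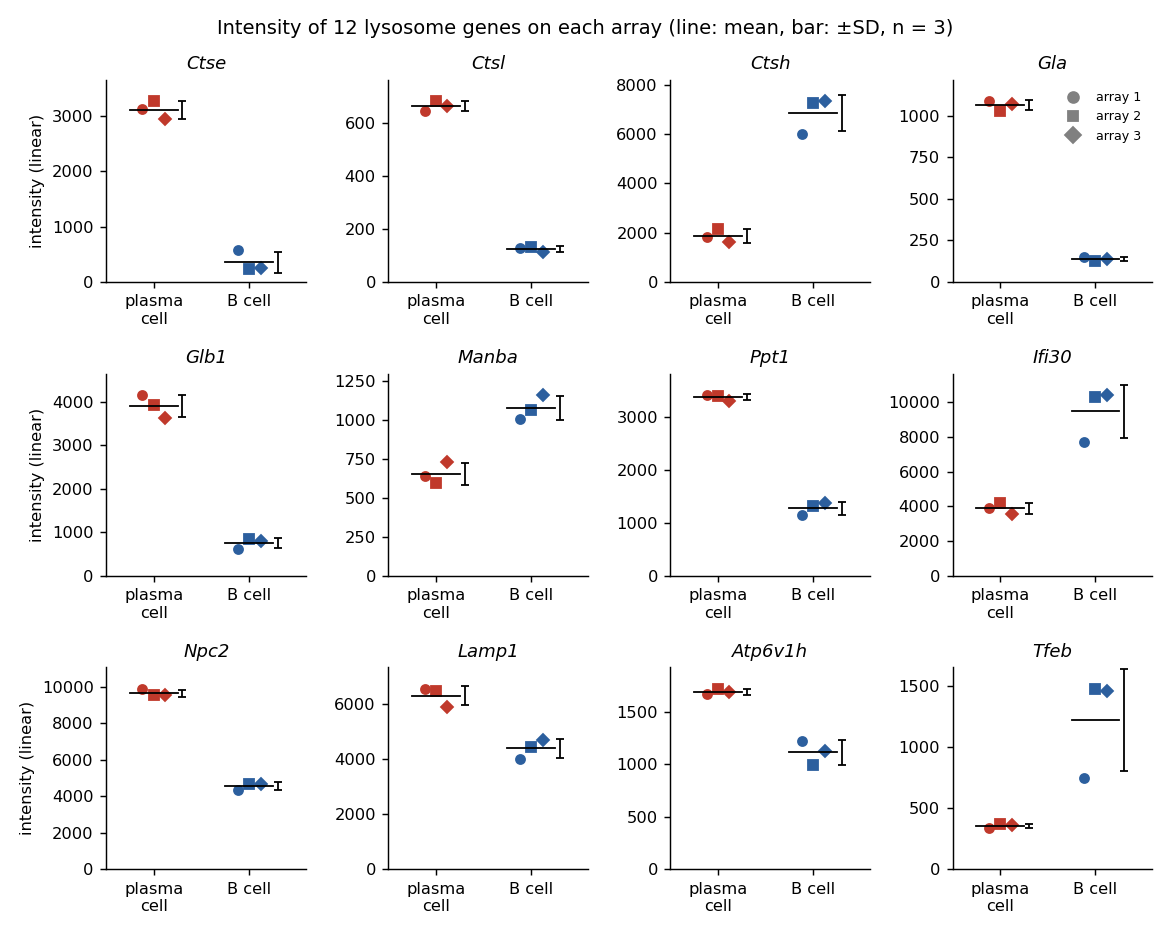
Linear intensity of 12 members on each array, plasma cells in red and B cells in blue, with marker shapes for arrays 1 to 3, lines for the means and bars for the SD. The plasma cell arrays lie close together in each panel, and B cell array 1 stands apart from arrays 2 and 3 for Tfeb (746 against 1479 and 1460) and Ctse (571 against 235 and 255).

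Of the 9 glycosidases 4 rose and 1 fell, 44.4% and 11.1%, where 17.6% of all genes rose and 12.3% fell. The 4 that rose did so by more than 2-fold. Gla, the α-galactosidase that is deficient in Fabry disease, was at 1086, 1028 and 1073 in plasma cells, against 152, 124 and 136 in B cells (log2 fold change 2.82 ± 0.12, adjusted p = 6.28e-05). Glb1, the lysosomal β-galactosidase, was at 4153, 3934 and 3633 in plasma cells, against 611, 834 and 793 in B cells (2.37 ± 0.16, adjusted p = 0.000221). Gusb, a β-glucuronidase that trims glycosaminoglycans, was at 4357, 4477 and 4163 in plasma cells, against 1401, 1544 and 1551 in B cells (1.52 ± 0.11). The 2 other probe sets of Gla lay within background on all 6 arrays and gave -0.54 and -0.38, neither past the threshold. For Gla, Glb1 and Gusb the lowest plasma cell array was over 2-fold above the highest B cell array. Gaa, which breaks down glycogen, was at 1129, 1149 and 976 in plasma cells and at 170, 423 and 406 in B cells (1.75 ± 0.35), and its call was lost without plasma cell array 1 or plasma cell array 2 (adjusted p = 0.0533 for both).

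Manba, the β-mannosidase, was the glycosidase that fell, at 637, 591 and 729 in plasma cells and 1002, 1066 and 1158 in B cells (log2 fold change -0.71 ± 0.14, adjusted p = 0.0108), a call lost without plasma cell array 1 (0.0536) or 2 (0.0516). The α-mannosidase Man2b1 was at 5620 to 6033 in plasma cells and 3051 to 4708 in B cells, and the sialidase Neu1 at 495 to 575 in plasma cells and 649 to 789 in B cells. Hexa, a subunit of β-hexosaminidase, was at 1971 to 2235 in plasma cells and 2224 to 3770 in B cells. These 3 did not pass the threshold in the fit with all arrays and did without B cell array 1, Man2b1 as higher (0.34, adjusted p = 0.0282), Neu1 as lower (-0.52, 0.0128) and Hexa as lower (-0.86, 0.00201). With all arrays kept, quantile normalization also gave these 3 calls in the same directions. So did array weights, but these nearly left out B cell array 1, at 0.0938 against 3.9007 and 1.1709 for arrays 2 and 3. The dimmer probe sets of Neu1 were called lower with all arrays (-1.86 and -1.41, adjusted p = 0.00461 and 0.0159 in limma's fit over probe sets). Naglu, which acts on heparan sulfate, was at 619 to 725 in plasma cells and 331 to 620 in B cells and was called in neither fit. Glb1, Ctsa and Neu1, whose proteins form 1 complex, thus did not move together: Glb1 had a log2 fold change of 2.37, Ctsa of -0.92 and Neu1 of -0.43 (95% interval -0.77 to -0.09).

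The 3 sulfatases went 3 ways. Arsb, which acts on dermatan sulfate, was at 592, 674 and 683 in plasma cells, against 235, 429 and 357 in B cells (log2 fold change 0.94 ± 0.23, adjusted p = 0.0276). Sgsh, the sulfamidase of heparan sulfate breakdown, was at 339, 301 and 327 in plasma cells, against 450, 581 and 499 in B cells (-0.63 ± 0.14, adjusted p = 0.0193). Ids, which removes sulfate from iduronate, was at 1814 to 2127 in plasma cells and 2095 to 2206 in B cells (-0.12, interval -0.42 to 0.17). The call of Arsb was lost without plasma cell array 1, 2 or 3 or B cell array 3 (adjusted p from 0.0656 to 0.0949), and that of Sgsh without plasma cell array 1, 2 or 3 or B cell array 2 or 3 (from 0.059 to 0.0822) or when its probe sets were averaged (0.419). The call of Arsb was also lost after median centring.

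Of the lipid hydrolases, Ppt1 and Asah1 rose. Ppt1, the thioesterase that removes palmitate from proteins, was at 3422, 3401 and 3317 in plasma cells, against 1141, 1314 and 1378 in B cells (log2 fold change 1.40 ± 0.12, adjusted p = 0.000602). Asah1, the acid ceramidase, was at 4259, 4442 and 4306 in plasma cells, against 2382, 2121 and 2405 in B cells (0.91 ± 0.12, adjusted p = 0.00224). Lipa, which hydrolyses cholesteryl esters and triglycerides, was at 888 to 1009 in plasma cells and 599 to 848 in B cells, and among the fits that leave out 1 array it was called higher in the one without B cell array 2 (0.60, adjusted p = 0.0438). Psap, the precursor of the saposins that help sphingolipid hydrolases, had 6272 to 6411 in plasma cells, inside the B cell range of 4591 to 7352. Ifi30, a thiol reductase that opens disulfides of antigens for MHC class II, was at 3895, 4190 and 3545 in plasma cells, against 7740, 10308 and 10421 in B cells (-1.28 ± 0.17, adjusted p = 0.00238). Ifi30 and Ctsh were the only members besides Tfeb to fall by over 2-fold.

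Of the 6 membrane and cholesterol transport proteins 3 rose and 0 fell, and 1 fell without B cell array 1. Of all genes 17.6% rose and 12.3% fell, and 21.1% fell without that array. Npc2, the soluble partner of NPC1 in cholesterol export, was at 9870, 9548 and 9529 in plasma cells, against 4332, 4671 and 4685 in B cells (log2 fold change 1.08 ± 0.11, adjusted p = 0.000975). Npc1 itself was at 464 to 547 in plasma cells and 423 to 495 in B cells (0.17, interval -0.15 to 0.50), so only Npc2 of the pair passed the threshold; the difference between them was not tested. Lamp1, an abundant glycoprotein of the lysosomal membrane, was at 6548, 6459 and 5898 in plasma cells, against 4018, 4456 and 4706 in B cells (0.52 ± 0.12, adjusted p = 0.0245). The 4 CACGTG motifs of its promoter, printed above, are the most in any of the 39 windows. Lamp2, its relative, was at 4451, 4243 and 4390 in plasma cells, against 3284, 3141 and 3537 in B cells (0.39 ± 0.11, adjusted p = 0.0465). The calls of both were lost without any 1 array other than B cell array 1, with adjusted p from 0.0502 to 0.103 for Lamp1 and from 0.079 to 0.16 for Lamp2, and after median centring (0.352 and 0.543). Scarb2, which carries glucocerebrosidase to the lysosome, had 0.05 (-0.27 to 0.37). Mcoln1, a calcium channel of the lysosome, was at 1218 to 1282 in plasma cells and 1465 to 2515 in B cells and was called lower without B cell array 1 (-0.97, adjusted p = 0.00086), though not with it (-0.72, adjusted p = 0.0653). With all arrays kept, quantile normalization and an eBayes trend were among the settings that called it lower. Array weights, which nearly leave out B cell array 1, did so too. Its other probe sets gave -0.97 (adjusted p = 0.0142) and 0.36 (0.305) in limma's fit over probe sets.

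Of the 5 proton pump members 1 rose and 0 fell, 20% and 0%, where 17.6% of all genes rose and 12.3% fell. Without B cell array 1, 2 fell (40%), where 21.1% of all genes did, and 30.1% of those above background on all 6 arrays. Atp6v1h, a regulatory subunit, was at 1665, 1715 and 1683 in plasma cells, against 1222, 989 and 1129 in B cells (log2 fold change 0.60 ± 0.13, adjusted p = 0.0163). That call was lost without any 1 array other than B cell array 1 (adjusted p from 0.0519 to 0.07), and after median centring. Atp6v1a, which carries the catalytic sites, had 0.30 (interval 0.00066 to 0.59), Atp6v0d1 of the central stalk 0.21 (-0.16 to 0.57), Atp6v1b2 -0.53 (-1.01 to -0.04) and the accessory subunit Atp6ap1 -0.24 (-0.85 to 0.37). The other probe set of Atp6v1a was called higher (0.53, adjusted p = 0.0241 in limma's fit over probe sets). Averaging probe sets also called Atp6v1a higher and Atp6v1b2 lower, as did array weights, which nearly leave out B cell array 1. Without B cell array 1 Atp6v1b2 (-0.72, adjusted p = 0.00388) and Atp6ap1 (-0.51, adjusted p = 0.00581) were called lower. The range over the 5, -0.53 to 0.60, was narrower than that of the 12 proteases, -1.88 to 3.19, and of the 9 glycosidases, -0.71 to 2.82. These groups differ in size and the difference in range was not tested. Among the 16 other pump subunits measured 4 rose and 0 fell, with a median of 0.28. The share that rose, 25%, was near the 22.8% of genes above background on all 6 arrays. Atp6v0a1, an isoform of the membrane-bound subunit a, stood out at 3779, 3757 and 3539 in plasma cells, against 992, 1394 and 1427 in B cells (1.54 ± 0.17, adjusted p = 0.00142), while its isoforms Atp6v0a2 (0.35) and Tcirg1 (-0.16) did not pass the threshold. Atp6v1g2 rose by 0.85 (adjusted p = 0.0434), Atp6v1f by 0.56 and Atp6v1d by 0.56 on the log2 scale. None of these 3 genes was called after median centring or without plasma cell array 1, and Atp6v1g2 and Atp6v1d were also not called without any 1 array other than B cell array 1.

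Tfeb fell. It was at 341, 371 and 366 in plasma cells, against 746, 1479 and 1460 in B cells (log2 fold change -1.66 ± 0.28, adjusted p = 0.00711, and -1.99 without B cell array 1). Tfeb has 1 probe set on the array, and its 3 RefSeq promoter windows hold no CACGTG. Of 14 measured genes for its relatives and for the machinery that controls them, 6 rose (42.9%) and 0 fell, where 17.6% of all genes rose and 12.3% fell. Tfe3 was at 2930, 2933 and 2838 in plasma cells, against 1667, 2041 and 2008 in B cells (0.61 ± 0.13, adjusted p = 0.0166). Mitf was at 1162, 1237 and 974 in plasma cells, against 649, 156 and 152 in B cells (2.08 ± 0.55, adjusted p = 0.0357, and 2.74 without B cell array 1). B cell array 1 also held the highest sums of monocyte and of T and NK cell markers. The plasma cell arrays, with more Mitf, had lower sums of both than that array. Against B cell arrays 2 and 3 (163 and 225) their T and NK cell sums (840 to 1476) were higher, and their monocyte sums lower. Their dendritic cell sums (5612 to 6720) were above those of all B cell arrays (1528 to 1786). So were their basophil, mast cell and eosinophil sums (12716 to 14042 against 284 to 572). The part of such cells in these values was not tested. The calls of both depended on the arrays: that of Tfe3 was lost without any 1 plasma cell array and after median centring (adjusted p = 0.252), and that of Mitf without any 1 array other than B cell array 1, with a pseudocount of 1 and when its probe sets were averaged. Tfec lay above background on 2 plasma cell arrays and 1 B cell array. Rragd, a GTPase that helps to hold these factors at the lysosome, was at 591 to 693 in plasma cells and 124 to 418 in B cells (1.504, adjusted p = 0.0405), and its call was lost without any 1 array other than B cell array 1.

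For 27 members the array carries several probe sets, and their fold changes often differed in size. In a fit over 34945 probe sets, in which 16% rose and 12.9% fell, the 51 probe sets of members other than those used above had 16 that rose, 12 that fell and 23 that did not pass the threshold. Lamp2 shows how far the size can depend on the choice. The probe set used gave a log2 fold change of 0.39 (adjusted p = 0.0554 in the fit over probe sets, 0.0465 over genes), and the others gave 0.54, 1.48 and 3.10. The one with 3.10 was at 3261, 3054 and 3035 in plasma cells, against 317, 386 and 351 in B cells (adjusted p = 5.58e-05). Lamp2 is known to make several splice forms with different last exons. Which form each probe set reads is not given in the annotation used here.

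Other genes varied in size but kept their direction. The second probe set of Gusb gave 3.09 beside 1.52, that of Arsb with the highest fold gave 3.28 beside 0.94, and the 3 other bright probe sets of Ctsb gave 1.55, 2.41 and 2.87 beside 1.51. The other probe sets of Ctsc gave -2.20 and -2.99 beside -0.58, and that of Ctsh -2.03 beside -1.88. Scarb2, which did not move on the brighter probe set, gave 1.48 on the dimmer (adjusted p = 0.00732). A few genes went both ways. Ppt1 had 1.40, 2.75 and 0.50 on 3 probe sets and -0.68 and -1.53 on the other two, all 5 past the threshold. Man2b1 had 0.54 on the brighter and -2.02 on the dimmer probe set (adjusted p = 0.000667), and Atp6v1h 0.60 on the brightest and -1.17 on one at 30.4 to 47.9 in plasma cells and 83.5 to 122 in B cells. Ctsl had 2.28 and, on a dimmer probe set at 61.2 to 86.5 in plasma cells and 128 to 547 in B cells, -1.35 (adjusted p = 0.116). The calls of Ppt1, Ctsl and Atp6v1h were lost when all probe sets of a gene were averaged (adjusted p = 0.0561, 0.29 and 0.87), and Man2b1 was then called lower (-0.74, adjusted p = 0.0234).

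**Figure D3:**
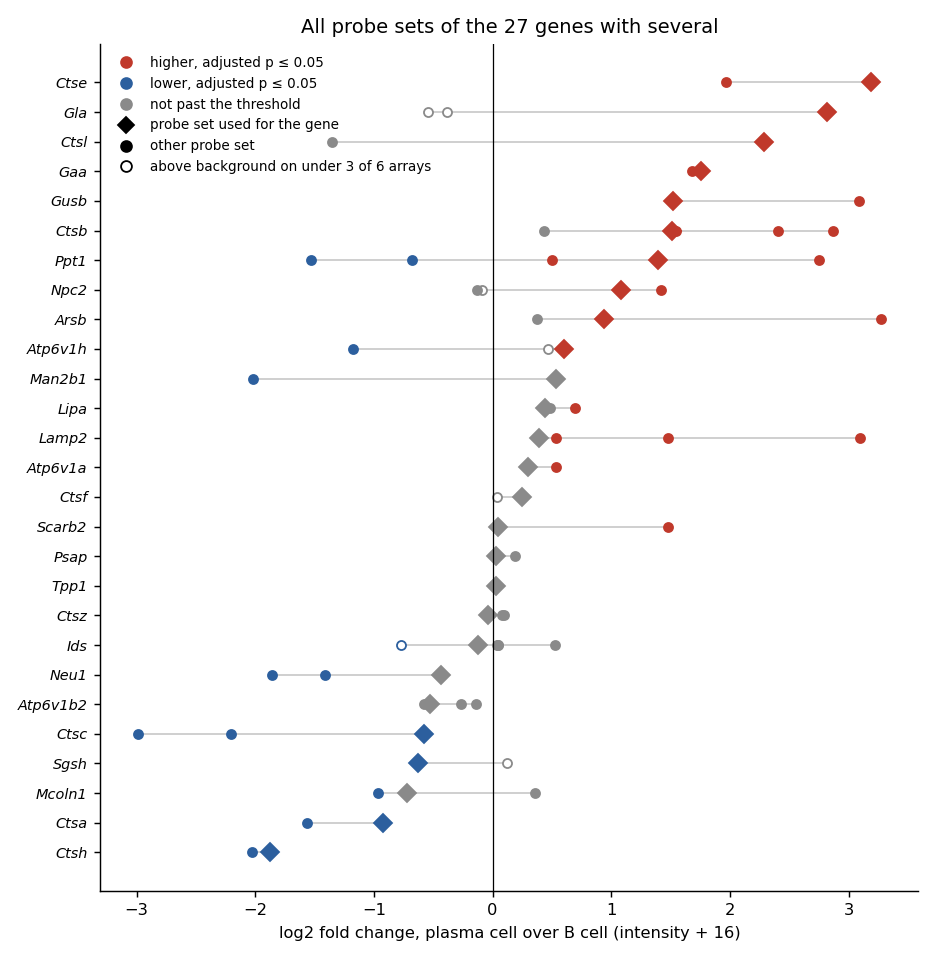
Log2 fold change of every probe set of the 27 members with several, in a fit over all probe sets. Diamonds mark the probe set used for the gene, circles the others, colours the call in that fit, and open circles probe sets above background on fewer than 3 of the 6 arrays. Lamp2 spreads from 0.39 to 3.10, while Ppt1, Atp6v1h, Man2b1, Mcoln1 and Ctsl are among those with probe sets on both sides of 0.

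Lysosome genes outside the member list were counted in the same fit. Of 107 measured genes 36 rose and 10 fell, 33.6% and 9.35%, where 17.6% of all genes rose and 12.3% fell. Their median log2 fold change was 0.22. Without B cell array 1 40 rose and 25 fell, 37.4% and 23.4%. In that fit 22.7% of all genes rose and 21.1% fell, and 28.9% and 30.1% of those above background on all 6 arrays. Among 7 other proteases 4 rose and 1 fell. Cpq, a carboxypeptidase, was at 654 to 1140 in plasma cells and within background on all B cell arrays, at least 31.1-fold higher, a call lost when its probe sets were averaged (adjusted p = 0.357). Ctsw, a cathepsin known from T and NK cells, was at 2151, 1756 and 2321 in plasma cells, against 338, 56.6 and 51.2 in B cells (4.11 ± 0.66). The highest B cell value fell on array 1, which had the highest T and NK cell sum. The plasma cell arrays, with more Ctsw, had sums of 840 to 1476, between that array (4365) and B cell arrays 2 and 3 (163 and 225). The part of such cells was not tested. Dpp7 fell (-0.95 ± 0.18). Of 6 other glycosidases Aga (2.11 ± 0.11) and Galc (1.36 ± 0.13) rose and 0 fell, 2 falling without B cell array 1, and of 4 other sulfatase genes Galns rose (1.73 ± 0.28). Among 9 other lipid and acid hydrolases 3 rose and 2 fell, and 4 fell without B cell array 1. Plbd2 (2.20) and the sphingomyelinase Smpd1 (1.32) had the largest rises, and the phosphatase Acp5 (-1.82) and the amidase Naaa (-1.78) fell. Naaa was at 117 to 144 in plasma cells and at 964, 343 and 325 in B cells, and its call was lost without any 1 plasma cell array (adjusted p up to 0.0855 over all settings).

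Of 24 other membrane proteins 10 rose and 3 fell, 41.7% and 12.5%, where 17.6% of all genes rose and 12.3% fell. Without B cell array 1, 6 fell (25%, against 21.1% of all genes). Cln8, an ER protein that exports lysosomal enzymes toward the Golgi, was at 994, 1132 and 950 in plasma cells, against 116, 112 and 111 in B cells (log2 fold change 3.00 ± 0.12, adjusted p = 4.98e-05). The sialic acid exporter Slc17a5 rose by 2.25 ± 0.13, and Slc38a9 (-0.96 ± 0.13), an arginine sensor, and Pip4p1 (-0.91 ± 0.18), a phosphoinositide phosphatase, fell. The call of Slc38a9 was lost when its probe sets were averaged, and that of Pip4p1 without plasma cell array 1 or 2 or B cell array 2 (adjusted p up to 0.0599 over all settings). In the sorting of enzymes by mannose 6-phosphate, 2 of 13 genes rose and 2 fell, and without B cell array 1 3 rose and 4 fell. With all arrays these were 15.4% each way, near the shares of all genes. Igf2r, the large receptor for this tag, was at 4701, 4789 and 4939 in plasma cells, against 1281, 1842 and 1571 in B cells (1.63 ± 0.16, adjusted p = 0.000909), while the small receptor M6pr was at 3243 to 3595 in plasma cells and 3151 to 3676 in B cells (-0.01). Gnptg, a subunit of the enzyme that makes the tag, rose (0.96 ± 0.11). The adaptors that load these receptors into vesicles at the Golgi fell in part, Gga2 by 1.63 ± 0.12 and Ap1m1 by 1.76 ± 0.18 on the log2 scale.

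Cystatins, the inhibitors of cysteine cathepsins, rose in 3 of 4 cases and fell in 0, where 17.6% of all genes rose and 12.3% fell. Cst6 was at 546, 576 and 567 in plasma cells and within background on all B cell arrays, at least 19.6-fold higher. Cst3 was at 14463, 14396 and 14231 in plasma cells, against 6428, 7060 and 7401 in B cells (log2 fold change 1.05 ± 0.12, adjusted p = 0.00132), and the plasma cell values lie within 2-fold of the highest on their arrays. Cstb, which stays in the cytosol, rose by 0.72 ± 0.13, a call lost after median centring (adjusted p = 0.14). Of 10 genes for tethering and positioning of lysosomes 1 rose and 2 fell, 10% and 20%, where 17.6% and 12.3% of all genes did. Without B cell array 1, 7 fell, where 21.1% of all genes did. Plekhm2, an adaptor that links lysosomes to kinesin, was at 395 to 422 in plasma cells and 63.6 to 128 in B cells (1.86 ± 0.26), whereas its relative Plekhm1, which acts in fusion with lysosomes, was at 860 to 1008 in plasma cells and 2255 to 2744 in B cells (-1.45 ± 0.14). The subunits of the HOPS tether measured, Vps11, Vps16, Vps18, Vps33a, Vps39 and Vps41, had log2 fold changes between -0.73 and -0.17 and did not pass the threshold with all arrays. Without B cell array 1 all of them but Vps33a were called lower, Vps16 with an adjusted p of 0.0038 and Vps41 with 0.0499.

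**Figure D4:**
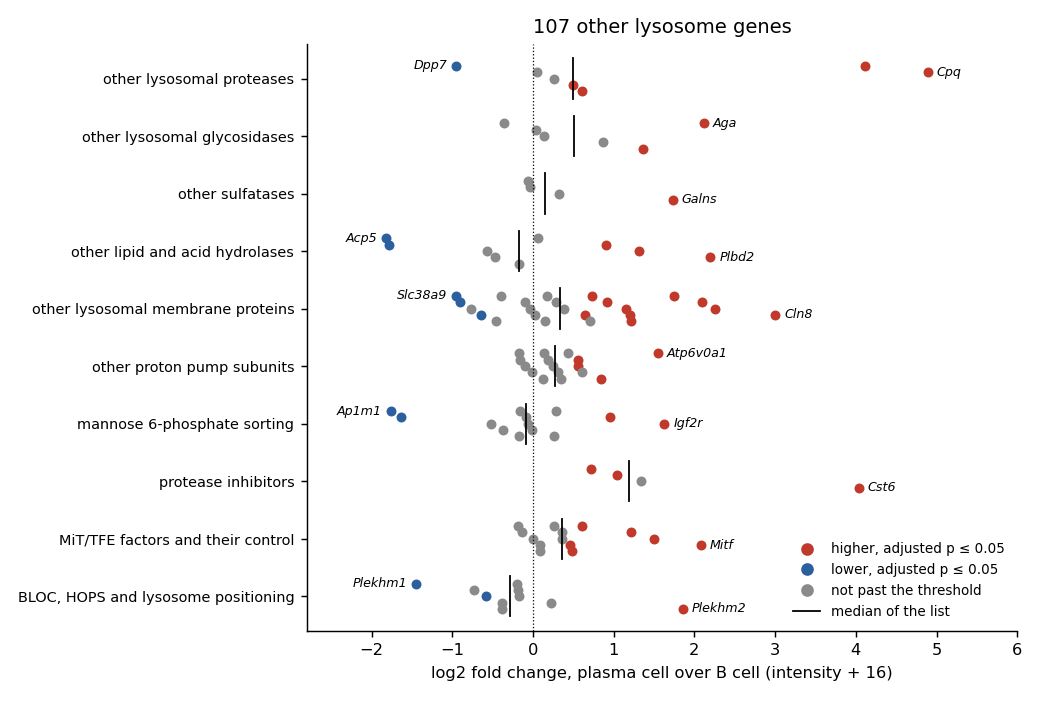
Log2 fold change of plasma cells over B cells for 107 lysosome genes outside the member list, by list. Each dot is a gene, coloured by the limma call, black lines are list medians, and the called gene farthest out on each side is named. The list of 4 protease inhibitors has its median at 1.19, and that of 10 tethering and positioning genes at -0.28.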

How the data were processed

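Affymetrix arrays were hybridised with biotinylated cDNA made by NuGEN Ovation V2 amplification, per the labels' protocols. The deposited table holds intensity values on a linear scale, 1 per probe set and array, and the sources used here do not state how the authors summarised, background-corrected or scaled them. Of 45101 probe sets 34945 had 1 symbol in the platform annotation, dated 2016, and symbols were updated by Entrez ID against RefSeq (GRCm38.p6, 34741 matched). Each gene was represented by the probe set with the highest mean of log2(intensity + 16), and fold changes on that scale understate those of dim genes. Plasma cells were compared with B cells in limma 3.58.1 (R 4.3.3), by lmFit and an eBayes step that used no trend. P-values were adjusted by Benjamini-Hochberg over 18193 genes, with a threshold of 0.05. SE is that of the fit and intervals are 95%. Background is the 95th percentile of 27 bacterial control probe sets on each array, 23.0 to 41.8. A gene that stayed within it throughout a group is given a bound, written as "at least", computed from mean log2 intensities with the dim group raised to that percentile. The number of arrays limits the precision. On simulated data for this comparison with 18193 genes, 44 of 50 genes changed 8-fold, 37 of 50 changed 4-fold, 9 of 50 changed 2-fold and 1 of 50 changed 1.5-fold were recovered, with 10 calls among unchanged genes. Far fewer genes were changed there than the 5439 called in the data. The adjustment was thus stricter in the simulation, and its recovery of small changes does not carry over to the real fit. The members and gene lists were chosen with earlier results of these data known. Every member is named, with values by array for called members, and from each other list the called genes with the largest changes. Other genes named were chosen after their values were seen. Replicate numbers did not pair the arrays: deviations of same-numbered arrays correlated at 0.0484, 0.0047 and 0.0458. Probe sets with several symbols were left out.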

Additional observations from a re-analysis of the deposited data

How the results depend on the processing

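Over 16 alternatives the 41 members gave 655 comparisons, of which 547 kept direction and side of the threshold, 48 lost a call, 38 gained one and 22 turned sign. Of the 22 called members 11 kept call and direction under every alternative and 1, Atp6v1h, turned. Where results changed, the cause was not tested. Median centring, which lowered the median log2 fold change of all genes by 0.21, gave 2028 genes higher in place of 3193 and 23 other lysosome genes higher in place of 36. Quantile normalization gave 11 members lower in place of 7. Array weights, at 0.0938 for B cell array 1, gave 4840 genes higher and 4654 lower in place of 2246. They gave 12 members lower, and 28 other lysosome genes lower in place of 10. Leaving out 1 array gave 1347 to 3830 genes lower, 3 to 13 members lower, 23 to 40 other lysosome genes higher and 6 to 25 lower; each highest count came without B cell array 1 and each lowest without plasma cell array 1, the 6 also without plasma cell array 2. Log2 fold changes near 0 turned sign: after median centring Tpp1 (-0.18), Psap (-0.18), Scarb2 (-0.16), Npc1 (-0.037) and Atp6v0d1 (-0.0023); after quantile normalization Tpp1 (-0.028), Psap (-0.066) and Scarb2 (-0.0052); with array weights Psap (-0.16). With all probe sets of a gene averaged, Ctsz gave 0.048, Man2b1 -0.74 and Atp6v1h -0.035, and without probe sets of the x and s classes Ctsz gave 0.10. Leaving out 1 array gave -0.079 to 0.44 for Ctsf, -0.32 to 0.13 for Ctsz, -0.024 to 0.081 for Tpp1, -0.19 to 0.15 for Psap and -0.031 to 0.092 for Scarb2. The replicate numbers did not pair the arrays. With the number as a block 12 members rose and 5 fell, and 5 members lost their call.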
